A study of Mus musculus with 14 samples.

Results

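The genes described here are the nuclear genes of the mitochondrial respiratory chain, chosen by symbol: Nduf with the letter a, b, c, s or v and digits, Sdha to Sdhd, every Uqcr symbol, Cox4i1 and the Cox5 to Cox8 subunits, Cycs, and every Atp5 symbol. The rule found 83 of the 50600 genes of the bulk table, 83 of the 32285 genes of the stromal tables and 80 of the 11992 genes of the progenitor table. In all, 85 of 54441 symbols matched in at least 1 table and 78 in all 3. They comprise 36 genes of complex I, 4 of complex II, 8 of complex III, 17 of complex IV, the gene of cytochrome c and 19 of complex V. The 13 protein-coding genes of the mitochondrial genome, whose symbols start with mt-, are given beside them.

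The study profiled mouse bone marrow with and without a breast tumour elsewhere in the body, to describe how marrow cells differ when such a tumour is present. Mesenchymal stem cells (MSC) were sequenced in bulk from 4 tumour-free and 4 tumour-bearing samples. The latter are titled Py230, the name of a mouse mammary tumour line derived from a PyMT tumour. Stromal cells were sequenced singly in 1 WT and 1 PyMT library, and hematopoietic stem and progenitor cells (HSPC) in 2 WT and 2 PyMT mice. PyMT mice carry the polyoma middle T oncogene, which gives rise to mammary tumours. The labels name neither the promoter of that transgene nor a strain, age or tumour stage, and they do not say whether bulk libraries came from separate or pooled animals. P-values in bulk thus describe how far these libraries spread, and that spread can be technical. The labels give bone marrow as the tissue of every sample, 1 cell type per kind of sample, and no drug or other agent.

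The bulk libraries held 4301375 to 9811251 reads in genes. The shallowest were Py230 libraries 4 and 1, at 4301375 and 4442276, and each other library held 6152960 or more. All 8 mesenchymal markers searched for (Lepr, Cxcl12, Kitl, Adipoq, Ebf3, Foxc1, Chrdl1 and Esm1) were read in every bulk library, though not at equal levels in both groups. Lepr lay between 2947 and 3814 CPM in tumour-free and between 2756 and 3221 in Py230 libraries, where CPM is a gene's count scaled to a common library total. After filtering, 2190 of 2508 WT and 3191 of 3563 PyMT stromal cells remained, with 10222176 and 15542745 unique molecular identifiers (UMIs). The HSPC libraries held 25452568 and 16365550 UMIs in WT mice 1 and 2 and 28570481 and 28136505 in PyMT mice 1 and 2. PyMT mouse 2 was shallower per cell, with a median of 3592 UMIs in G1 cells against 5629 to 5962 in the other 3 mice. The stromal libraries shared 2 cell barcodes and pairs of HSPC libraries 8 to 23. Each HSPC title begins with PyMT, yet the genotype label and the deposited cell metadata give WT for 2 of the 4 mice. The genotype label was followed.

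The respiratory chain passes electrons from NADH through complex I, or from succinate through complex II, to ubiquinone, and from there through complex III and cytochrome c to complex IV, which reduces oxygen. Complexes I, III and IV pump protons, and complex V, the ATP synthase, uses the gradient to make ATP. All of these except complex II are built from products of both genomes, so nuclear subunits made in the cytosol meet mitochondrially encoded ones in the inner membrane. Quiescent blood stem cells are known for relying little on this chain, and their differentiating progeny use it more.

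Promoters of 3 members are shown because these genes carry the results that follow. Cycs, the gene of cytochrome c, and Atp5o were higher in PyMT than in WT progenitors, and Cox5a was the member that passed the test in bulk MSC. Each window runs from 250 bases before to 50 bases after a RefSeq start in GRCm38.p6 and is written along the gene's own strand. The Cycs window is chr6:50566520-50566819 on the minus strand, the Cox5a window chr9:57520982-57521281 on the plus strand and the Atp5o window chr16:91931581-91931880 on the minus strand. Capitals mark a match to GCATGCGC, a core of the NRF1 motif, or to TGACGTCA, the CREB motif.
Cycs: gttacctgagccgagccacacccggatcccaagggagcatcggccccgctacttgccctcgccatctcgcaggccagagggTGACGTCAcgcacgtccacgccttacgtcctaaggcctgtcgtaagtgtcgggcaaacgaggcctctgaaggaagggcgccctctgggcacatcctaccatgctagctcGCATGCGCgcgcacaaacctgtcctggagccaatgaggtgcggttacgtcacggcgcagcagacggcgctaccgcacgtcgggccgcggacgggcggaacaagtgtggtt
Cox5a: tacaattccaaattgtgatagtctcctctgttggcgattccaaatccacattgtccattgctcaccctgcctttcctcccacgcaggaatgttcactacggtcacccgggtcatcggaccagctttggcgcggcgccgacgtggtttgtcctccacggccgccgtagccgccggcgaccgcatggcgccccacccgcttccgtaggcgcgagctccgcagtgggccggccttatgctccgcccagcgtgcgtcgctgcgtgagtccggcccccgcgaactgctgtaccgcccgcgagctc
Atp5o: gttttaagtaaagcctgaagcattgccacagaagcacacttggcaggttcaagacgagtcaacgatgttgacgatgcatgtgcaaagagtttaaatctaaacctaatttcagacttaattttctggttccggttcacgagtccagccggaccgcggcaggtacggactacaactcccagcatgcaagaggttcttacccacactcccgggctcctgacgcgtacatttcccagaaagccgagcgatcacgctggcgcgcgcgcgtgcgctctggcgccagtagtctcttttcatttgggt
The Cycs window holds 1 match to each of these motifs and none to CCGGAAG, a motif of the ETS factor GABPA. The Cox5a and Atp5o windows hold none of the 3. NRF1, GABPA and CREB are known regulators of respiratory chain genes. The motifs were searched on both strands and separately, so that matches of different motifs may overlap, and they were picked after the sequences had been seen. Over the 74 windows of the 69 members found in the table, 14.9% held the NRF1 letters against 2.7% of all 32851 windows. The GABPA letters stood in 23.0% against 8.9% and the CREB letters in 6.8% against 1.8%. A match is a description of the sequence and says nothing of binding.

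In bulk MSC, Cox5a fell with the tumour and no other member passed the test, while most members lay slightly below 0. Of the 83 members, 78 had enough reads to be tested with edgeR's quasi-likelihood test, among 16317 genes. One was lower and none higher at an adjusted p of 0.05. Over all genes tested, 2.74% were called lower and 1.99% higher, so that 1 call among 78 is not above the background. The estimate was below 0 for 63 of the 78 members, against 45.2% of all genes (54.8% were above 0). An unadjusted p under 0.05 was found for 13 members with lower and 1 with higher values, against 7.92% and 8.24% of all genes. The median log2 difference, Py230 minus tumour-free, was -0.19 over the members and 0.04 over all genes tested. By complex, the medians were -0.18 for complex I, -0.20 for complex II, -0.26 for complex III, -0.15 for complex IV and -0.12 for complex V.

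Cox5a encodes a structural subunit of complex IV. Its normalised level was 11.4, 7.82, 7.95 and 9.44 CPM in tumour-free libraries 1 to 4 and 2.59, 3.47, 4.95 and 5.44 CPM in Py230 libraries 1 to 4. Every Py230 library was below every tumour-free library. Few reads carry these values: Py230 library 1, at 2.59 CPM, held 4442276 reads in genes. The part of depth in the call was not tested. The means were 9.16 ± 1.68 (SD, n = 4) and 4.11 ± 1.32 CPM, a 2.22-fold difference, with a log2 change of -1.15 (SE 0.28) and an adjusted p of 0.030 by edgeR. With no filter on low counts 2 members were called lower, against 1.3% of all genes, and with the replicate number as a block 0, against 1.17%. Leaving out 1 library changed that call in 5 of 8 cases. Without tumour-free library 1, 2 or 4 the adjusted p was 0.113, 0.052 and 0.066, and without Py230 library 1 or 2 it was 0.061 and 0.101, with log2 changes between -1.32 and -1.01 over all 8 omissions. In bulk RNA, fewer cells that use a gene and less of its RNA per cell cannot be told apart. Of the 8 LepR+ mesenchymal markers, 4 fell in the same test and none rose. Cxcl12 lay at 18545 to 20789 CPM in tumour-free and 8491 to 11470 CPM in Py230 libraries (log2 -0.95), and Ebf3 at 1523 to 1809 and 873 to 1165 CPM (log2 -0.71). Adipoq lay at 574 to 743 and 120 to 255 CPM (log2 -1.71), and Chrdl1 at 712 to 1078 and 206 to 342 CPM (log2 -1.85). Lepr, Kitl, Foxc1 and Esm1 did not pass, at log2 -0.21, -0.18, -0.16 and -0.72. The part of these differences in the fall of Cox5a and in the members' values was not tested.

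In complex I, 28 of 36 members were below 0 and none was called. Ndufa3, an accessory subunit, had 18.7, 11.8, 11.2 and 10.3 CPM in the tumour-free and 6.90, 7.81, 8.85 and 8.38 CPM in the Py230 libraries. These groups did not overlap, but the log2 difference of -0.70 had an adjusted p of 0.105 by edgeR. Ndufs4, an accessory subunit whose loss gives a Leigh-like disease in mice, had 51.8, 32.6, 38.5 and 26.7 CPM against 28.03, 30.1, 23.7 and 21.3 CPM. Tumour-free library 1 was the highest and library 4 lay within the Py230 range (log2 -0.54, adjusted p = 0.155 by edgeR). Ndufa4, named for complex I and now counted with complex IV, was at log2 -0.75 with an adjusted p of 0.198.

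The 4 genes of complex II and the 8 of complex III were all below 0 and none was called. Sdhb, the iron-sulphur subunit of succinate dehydrogenase, had 19.2, 17.0, 15.9 and 17.6 CPM against 14.7, 13.8, 17.1 and 15.4 CPM, and the groups overlapped (log2 -0.19, adjusted p = 0.614 by edgeR). Sdhd, a membrane anchor of the enzyme, had 18.0, 14.0, 11.2 and 9.59 CPM against 11.4, 9.54, 9.16 and 8.84 CPM, again with overlap (log2 -0.44, adjusted p = 0.340). Of complex III, Uqcrfs1, the Rieske iron-sulphur protein, had 19.9, 10.8, 15.7 and 12.9 CPM against 10.35, 9.05, 12.01 and 11.8 CPM. Its tumour-free library 2 lay within the Py230 range (log2 -0.46, adjusted p = 0.292). The hinge protein Uqcrh had 29.99, 29.9, 30.3 and 20.6 CPM against 15.3, 26.03, 25.1 and 20.8 CPM (log2 -0.33, adjusted p = 0.412). Tumour-free library 4 stood apart from the other 3 of its group for this gene.

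In complex IV, 9 of 12 tested members were below 0. Cox6c had 77.9, 71.2, 67.7 and 53.2 CPM against 39.7, 52.4, 65.4 and 47.8 CPM, with overlap (log2 -0.38, adjusted p = 0.212 by edgeR). The muscle and brown fat isoforms were nearly unread. Cox6a2 had 0, 0, 1 and 0 reads in the tumour-free and 4, 0, 6 and 3 in the Py230 libraries. Cox7a1 had 3, 0, 3 and 3 against 7, 6, 3 and 2 reads, and Cox8b 0, 3, 0 and 4 against 0, 0, 1 and 0. Their widely expressed counterparts were read in every library. Cox6a1 had 16.4, 15.97, 17.3 and 8.86 CPM against 6.47, 11.4, 14.6 and 9.74 CPM (log2 -0.44, adjusted p = 0.457). Cox7a2 had 12.98, 7.15, 6.94 and 7.99 CPM against 6.68, 6.69, 6.32 and 5.89 CPM (log2 -0.45, adjusted p = 0.414), without overlap. Cox8a, at 20.8, 15.97, 18.9 and 16.7 CPM against 11.4, 17.6, 22.9 and 12.9 CPM, overlapped (log2 -0.13). Cox7a2l, a supercomplex assembly factor, had 17.7, 17.6, 15.0 and 15.5 CPM against 17.2, 15.4, 20.5 and 16.8 CPM and was at log2 0.09.

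In complex V, 13 of 17 members were below 0 and none was called. The 3 genes Atp5g1, Atp5g2 and Atp5g3 encode the same mature subunit c of the proton-driven ring. Atp5g3 had 27.8, 25.3, 27.9 and 28.2 CPM against 18.1, 16.7, 23.4 and 22.2 CPM, without overlap (log2 -0.44, adjusted p = 0.108 by edgeR). Atp5g1, at 9.87, 9.65, 8.84 and 5.67 CPM against 9.06, 6.57, 8.01 and 8.38 CPM, and Atp5g2, at 4.67, 4.32, 3.41 and 4.79 CPM against 3.23, 5.33, 4.85 and 6.57 CPM, overlapped and were at log2 -0.10 and 0.22. Reads of both can be shared with near-identical copies elsewhere in the genome. Atp5sl, which matches the symbol rule but encodes an assembly factor of complex I, was the member with the highest estimate, at 5.84, 6.49, 6.82 and 4.504 CPM against 9.06, 8.18, 9.27 and 10.7 CPM. Every Py230 library was above every tumour-free one (log2 0.64, adjusted p = 0.145). Cycs had 44.7, 30.9, 36.2 and 29.2 CPM against 20.9, 29.0, 32.4 and 24.2 CPM, with overlap (log2 -0.39, adjusted p = 0.256). In all, 4 members were lower and 1 higher without overlap of the groups, against 5.61% lower and 5.36% higher over all genes tested.

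The 11 mt- genes tested in bulk were all below 0, with a median log2 difference of -0.37, 4 with an unadjusted p under 0.05 and none called by edgeR. Of the 13, mt-Co2, mt-Co3, mt-Atp6, mt-Nd3 and mt-Nd4l have copies of at least 95% identity over nearly their whole length on chromosome 1 and were read at low counts, so their values are uncertain. Summed over all members, nuclear reads made up 0.150% to 0.194% of a tumour-free and 0.150% to 0.165% of a Py230 library. The sums of the mt- genes were 0.481% to 0.886% and 0.547% to 0.581%. In both sums the tumour-free range contained the Py230 range.

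Other mitochondrial and metabolic lists were read from the same bulk fit. The median was -0.02 over 77 mitochondrial ribosomal protein genes, of which Mrpl27 and Mrpl38 were lower, and 0.00 over 83 cytosolic ones, of which none was called. It was -0.13 over 15 complex I assembly factors and -0.10 over 33 factors for the other complexes, none of which was called. Of 19 tricarboxylic acid cycle enzymes, with a median of -0.12, Idh2 fell (log2 -0.46, adjusted p = 0.022 by edgeR). Of 17 glycolysis genes, with a median of 0.19, Tpi1, Pkm and Pfkl rose (log2 0.62, 0.56 and 0.57). None of 21 regulators of mitochondrial biogenesis was called, and their median was 0.21.

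Sums of macrophage, skeletal muscle and endothelial markers were set side by side for the bulk groups. Sums of brown adipocyte, erythroid, neutrophil, B cell, and T and NK cell markers are not given here. The 8 macrophage markers summed to 48.8 to 61.3 CPM in tumour-free and 73.5 to 110 CPM in Py230 libraries. The 12 skeletal muscle markers summed to 8.43 to 27.3 and 24.9 to 57.2 CPM, and the 8 endothelial markers to 22.5 to 41.4 and 27.1 to 82.8 CPM. Of these lists none had a gene at 0 in all 8 libraries. The 19 immediate-early and dissociation stress genes summed to 44560 to 44925 and 44935 to 48216 CPM. The macrophage sums did not overlap between groups, while the muscle and endothelial sums did. Of the macrophage markers, Csf1r rose in Py230 libraries (log2 1.49, adjusted p = 0.0042 by edgeR). The stress sums were apart only narrowly, at 44925 against 44935 CPM. In the stress list Hspa1a and Hspa1b rose (log2 1.05 and 1.35) and Socs3 fell (log2 -0.75). The part of these differences in the members' values was not tested.

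**Figure D1:**
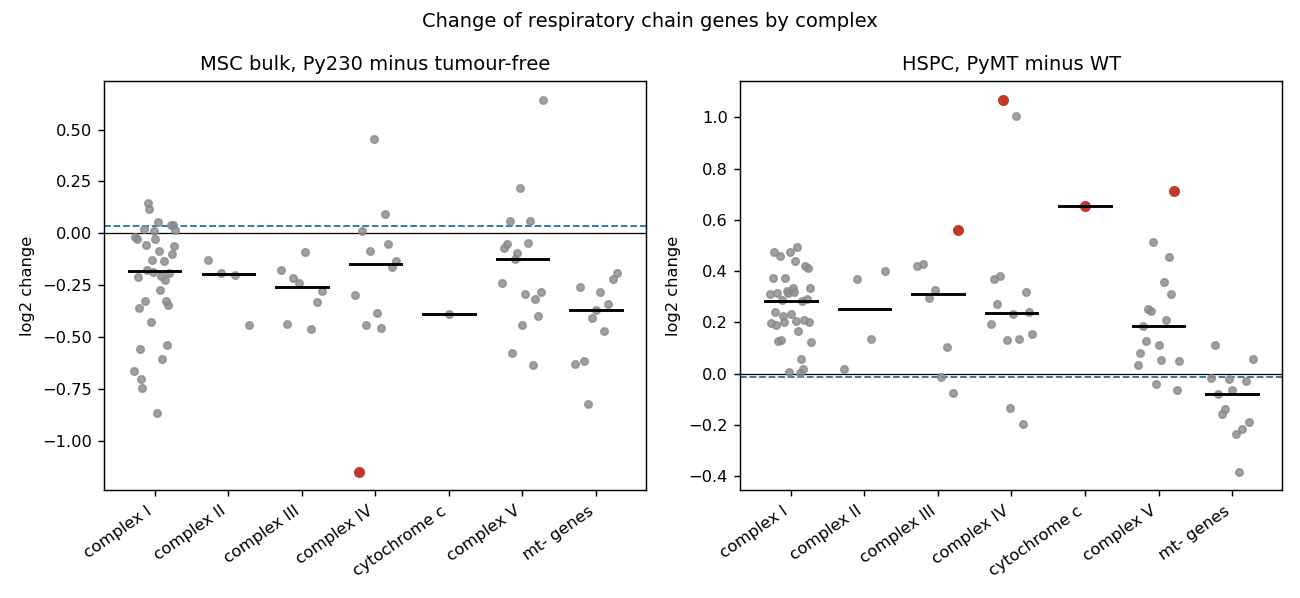
Log2 change of each member (points) by complex in bulk MSC (left, Py230 minus tumour-free) and HSPC (right, PyMT minus WT), with the 13 mt- genes beside them (11 in bulk). Red points passed an adjusted p of 0.05, black bars are medians of each complex and the dashed line is the median of all genes tested. In bulk the members centre at -0.19 with Cox5a lowest, in HSPC at 0.24 with Cox6a2 highest.

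In HSPC the members lay on the other side of 0. Cox6a2, Atp5o, Cycs and Uqcrq rose in PyMT mice and none fell. UMIs were summed per mouse and 11759 genes were tested with edgeR, all 80 members among them. Over all genes 0.85% were called higher and 0.553% lower, and 4 of 80 members were called higher and 0 lower. At an unadjusted p under 0.05, 43 members were higher and none lower, against 12.2% and 10.2% of all genes. The estimate was above 0 for 74 of the 80, against 47.9% of all genes, and below 0 for 6, against 52.1%. The median log2 difference, PyMT minus WT, was 0.24 over the members and -0.01 over all genes tested. The groups of 2 mice did not overlap for 58 members with higher and 1 with lower PyMT values, against 26.7% and 29.2% of all genes.

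Cox6a2, the heart and muscle isoform of a complex IV subunit, had 15.2 and 17.5 CPM in WT mice 1 and 2 and 32.8 and 35.6 CPM in PyMT mice 1 and 2. The means were 16.4 ± 1.64 (SD, n = 2) and 34.2 ± 2.01 CPM, a 2.10-fold difference (log2 1.07, SE 0.12, adjusted p = 0.0099 by edgeR). Both PyMT mice were above both WT mice. Atp5o, which encodes the stalk subunit OSCP of ATP synthase, had 484 and 482 CPM in WT and 783 and 801 CPM in PyMT mice. The 2 mice of each genotype differed little, and the log2 change was 0.71 (SE 0.10, adjusted p = 0.017 by edgeR). Atp5o has a copy, Gm5436, of 97.0% identity over 76.7% of its length, so its count is uncertain to that extent.

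Cycs had 698 and 619 CPM in WT and 1081 and 991 CPM in PyMT mice, a log2 change of 0.65 (SE 0.11, adjusted p = 0.037 by edgeR). Uqcrq, a small subunit of complex III near the ubiquinone site, had 527 and 457 CPM against 747 and 704 CPM (log2 0.56, SE 0.11, adjusted p = 0.047). For both genes the PyMT mice lay above the WT mice. Each fit without 1 mouse leaves 1 mouse in a genotype, where spread between mice cannot be estimated. Calls from such fits, and their counts below, therefore do not show how stable a result is. Over these fits the log2 change ranged from 0.57 to 0.74 for Cycs and from 0.46 to 0.67 for Uqcrq. For Cox6a2 the range was 0.97 to 1.17 and for Atp5o 0.69 to 0.72. The number of members called higher was 2 without WT mouse 2, 9 without WT mouse 1, 29 without PyMT mouse 1 and 36 without PyMT mouse 2, where 0.841%, 2.91%, 6.03% and 9.54% of all genes were called higher. DESeq2's Wald test called 26 members higher, against 3.89% of all genes. In G1 cells alone edgeR called 10 members, against 1.07%, and with DESeq2's size factors 7, against 1.11%.

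**Figure D2:**
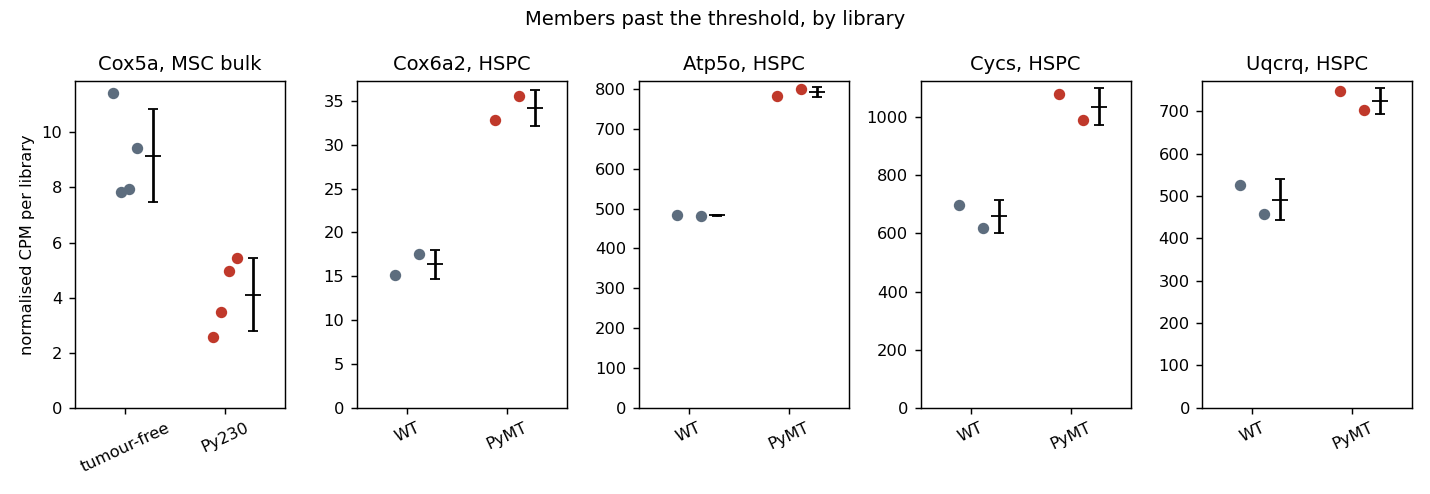
Normalised CPM per library (points) of the 5 members past the threshold, Cox5a in bulk MSC and Cox6a2, Atp5o, Cycs and Uqcrq in HSPC, with the mean and SD of each group (bars). The vertical axes start at 0 and differ between panels. For every gene the groups do not overlap.

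By complex, the median log2 difference in HSPC was 0.29 in complex I, 0.25 in complex II, 0.31 in complex III, 0.24 in complex IV and 0.19 in complex V. All 36 complex I genes were at or above 0 and none was called. The closest to the threshold, Ndufb4 (log2 0.47) and Ndufa5 (log2 0.46), both accessory subunits, each had an adjusted p of 0.056 by edgeR. In complex II, Sdhd was at 0.40 and Sdhb at 0.37, while Sdha, the flavoprotein that oxidises succinate, was at 0.02. In complex III, Uqcrc2, a core protein, and Uqcrh were at -0.01 and -0.08. In complex IV, Cox6b2, a testis isoform, and Cox7a2l were at -0.13 and -0.20. Cox7a2l had 611 and 603 CPM in WT and 543 and 515 CPM in PyMT mice, without overlap (adjusted p = 0.261). In complex V, Atp5g2 was at -0.04 and Atp5s at -0.06.

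Paralogues of 1 subunit differed in their estimates. Cox6a1 had 638 and 589 CPM in WT and 823 and 775 CPM in PyMT mice (log2 0.38, adjusted p = 0.082 by edgeR), beside Cox6a2, its paralogue of lower count. Cox7a1 had 2.22 and 1.38 against 3.68 and 3.72 CPM (log2 1.01, adjusted p = 0.090), and Cox7a2 660 and 596 against 722 and 655 CPM (log2 0.13, adjusted p = 0.485). Cox8a had 1322 and 1242 against 1509 and 1344 CPM (log2 0.15). Cox8b is not among the genes of the HSPC table. Atp5g1 had 894 and 815 against 1244 and 1197 CPM (log2 0.51, adjusted p = 0.054). Atp5g2 had 1007 and 976 against 1058 and 871 CPM, and Atp5g3 353 and 357 against 418 and 349 CPM (log2 0.11). The PyMT mice were above the WT mice for Atp5g1, and the genotypes overlapped for the other 2 genes of subunit c. The difference between paralogues was not tested.

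The mt- genes in HSPC had a median log2 difference of -0.08, 11 of 13 were below 0 and none was called by edgeR, while mt-Nd2 and mt-Nd3 had an unadjusted p under 0.05 and lower values in PyMT mice. As shares of the UMIs counted, the nuclear members took 4.66% and 4.42% in WT and 5.02% and 4.89% in PyMT mice. HSPC shares, here and by cluster, are taken over 11992 genes without cytosolic ribosomal protein genes. They are thus not on the scale of the stromal shares, which are taken over 32285 genes. The mt- genes took 2.70% and 2.71% in WT and 2.27% and 2.42% in PyMT mice. The nuclear share was thus higher and the mt- share lower in both PyMT mice than in both WT mice.

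Of the other lists in HSPC, 77 mitochondrial ribosomal protein genes had a median of 0.27, with 75 above 0 and none called. Of 14 complex I assembly factors, with a median of 0.20, Ndufaf6 rose (log2 0.50, adjusted p = 0.042 by edgeR). Of 17 glycolysis genes, with a median of 0.30, Eno1 rose (log2 0.60, adjusted p = 0.037). The medians were 0.12 over 19 tricarboxylic acid cycle enzymes and -0.03 over 20 biogenesis regulators, with no call in either. Of 18 stress genes, with a median of 0.46, Junb and Socs3 rose. The stress genes summed to 0.642% and 0.666% of UMIs in WT and 0.714% and 0.902% in PyMT mice. The members are short transcripts. Non-members under 800 nucleotides had a median of 0.11 in this comparison and those of 3000 or more -0.08. Across genes, Spearman's rho between length and log2 change was -0.30 over the 80 members and -0.25 over 11472 genes, a description in which all genes share the same 4 libraries. The 8 macrophage markers, each detected in every mouse, summed to 38.6 and 57.2 CPM in WT and 75.0 to 88.7 CPM in PyMT mice, with Cd68 and Cd14 higher and C1qa and C1qc lower. The part of length, stress RNA, these markers, depth and the mix of progenitor types in the result was not tested.

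Rebuilt HSPC clusters, made without the members and the mt- genes, show how the levels vary between progenitor types. The lowest summed level was in cluster 1, stem-like by Procr, Hlf and Mllt3, where the members took 3.96% ± 0.16 of UMIs (mean and SD, n = 4 mice). The highest was in cluster 5, granulocyte-monocyte-like by Elane, Mpo and Ctsg, at 5.39% ± 0.23. Of the 80 members, 58 had their lowest mean in cluster 1 and 44 their highest in cluster 5. The same counts over all genes were not made. Mitochondrial ribosomal protein genes (1.18% and 1.56%) and tricarboxylic acid cycle enzymes (0.313% and 0.402%) were also lowest in cluster 1 and highest in cluster 5. Glycolysis genes were highest in cluster 5 (1.01%) but lowest in cluster 4 (0.656%). The mt- genes had the opposite extremes, with 3.19% ± 0.19 in cluster 1 and 2.14% ± 0.20 in cluster 5. Between these lay cluster 7, lymphoid-like by Dntt and Flt3 (4.48% ± 0.24), and cluster 3, megakaryocyte-erythroid-like by Pf4, Car1 and Itga2b (4.79% ± 0.08). Clusters 2, 4, 6 and 8 are led by cell cycle or histone genes and stay unnamed, with means of 4.65%, 4.84%, 4.96% and 4.90%. These means differ by less than their SD, which pools both genotypes, between neighbours in the order 3, 4, 8 and 6. Taken mouse by mouse, such neighbours did not keep 1 order in all 4 mice. Cluster 6 was above cluster 4 in each, at 5.12% against 5.08% and 5.15% against 4.99% in PyMT mice 1 and 2. In WT mice 1 and 2 the values were 4.87% against 4.79% and 4.70% against 4.49%. The clusters were defined on the same cells, so no test was made, and median UMIs per cell ran from 3330 in cluster 1 to 11598 in cluster 5.

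**Figure D3:**
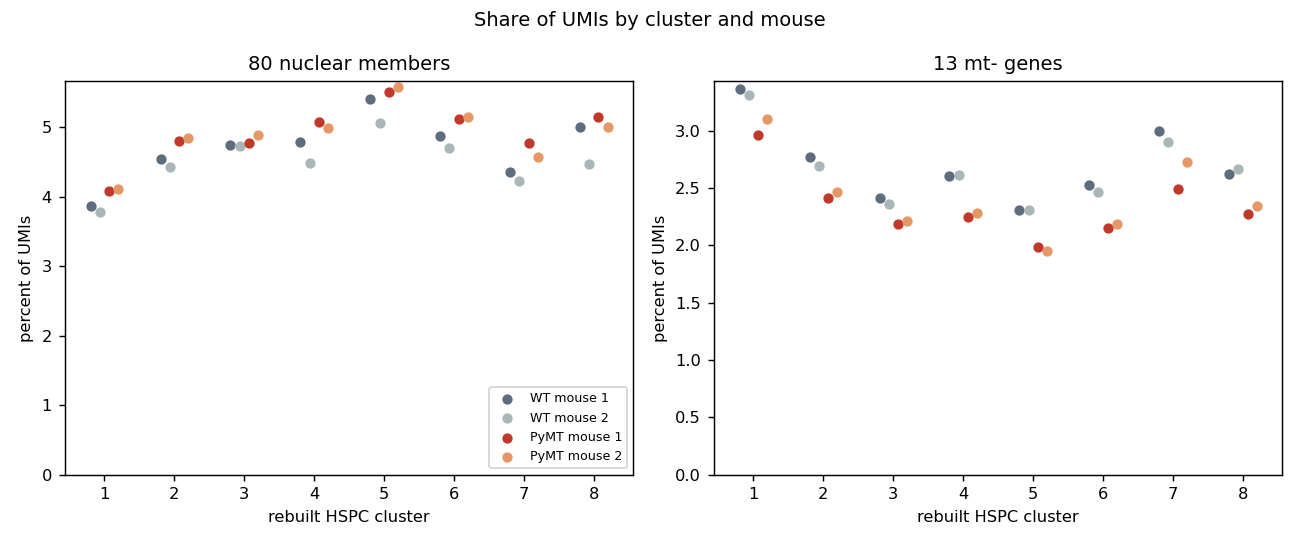
Share of UMIs from the 80 nuclear members (left) and the 13 mt- genes (right), in percent, for each rebuilt HSPC cluster and mouse (points). The nuclear share is lowest in stem-like cluster 1 and highest in granulocyte-monocyte-like cluster 5, and the mt- share is highest in cluster 1 and lowest in cluster 5.

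Single members followed this order to different degrees. Cycs averaged 402 ± 54.2 CPM in stem-like cluster 1 and 1319 ± 209 CPM in cluster 5, with 1130 ± 168 in the Hist1h2ap- and Tk1-led cluster 6. Its values in cluster 1 were 368 and 343 CPM in WT and 442 and 453 CPM in PyMT mice, below every value in cluster 5 (1167, 1139, 1387 and 1584 CPM). Uqcrq went from 395 ± 55.1 to 871 ± 112 CPM and Atp5o from 419 ± 107 to 834 ± 142 CPM between the same clusters. Cox7a2l ran the other way, from 798 ± 93.1 CPM in cluster 1 to 430 ± 53.1 in cluster 5. Cox6b2 was highest in cluster 8 (253 ± 57.5 CPM) and lowest in lymphoid-like cluster 7 (82.5 ± 14.5 CPM).

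Cox6a2 was among the 10 leading genes of lymphoid-like cluster 7, where it averaged 153 ± 60.2 CPM. Its values there were 115 and 91.4 CPM in WT and 186 and 220 CPM in PyMT mice. It averaged 37.8 CPM in cluster 4, 31.1 in cluster 6, 27.4 in cluster 8, 15.1 in cluster 5, 6.63 in cluster 2, 1.85 in stem-like cluster 1 and 0.786 in cluster 3. In cluster 7 it was above every other cluster in each of the 4 mice, and the values of clusters 4, 6 and 8 overlapped. Its counterpart Cox6a1 varied less, from 467 ± 68.3 CPM in cluster 1 to 849 ± 42.6 in cluster 5.

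The genotype difference was also taken within clusters, an alternative added after the data had been seen, for the 7 clusters with at least 50 cells in every mouse (cluster 5 had 43 in WT mouse 2). Cluster 7 made up 6.14% and 8.78% of WT and 8.11% and 8.10% of PyMT cells. Cluster 5 made up 6.37% and 1.95% of WT and 16.3% and 7.88% of PyMT cells. Cluster 1 held 26.6% and 31.0% of WT and 17.9% and 28.7% of PyMT cells. The values were 19.2% and 17.2% against 22.4% and 22.8% for cluster 2, and 18.4% and 14.8% against 10.2% and 9.83% for cluster 3. The part of these cell shares in the differences between whole mice was not tested. The member median was 0.19, 0.18, 0.05, 0.22, 0.17, 0.20 and 0.13 in clusters 1, 2, 3, 4, 6, 7 and 8. In the same order 5, 1, 0, 2, 6, 2 and 2 members were called higher by edgeR, where 1.23%, 0.34%, 0.27%, 0.546%, 0.803%, 0.244% and 0.325% of all genes were. None was called lower. Atp5o was called in 6 of the 7, with log2 changes of 0.59 to 0.71, and was at 0.38 in cluster 3 (adjusted p = 0.146). Cox6a2 rose in clusters 6 (log2 1.35) and 7 (log2 1.04) and did not pass in clusters 2, 4 and 8. Cycs rose in clusters 1, 4, 6 and 8, with log2 changes of 0.40 to 0.85, and was at 0.41, 0.21 and 0.38 in clusters 2, 3 and 7. Uqcrq rose in clusters 1 and 6 (log2 0.38 and 0.42). Whether the change differs between clusters was not tested.

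Most members were higher in progenitors called S or G2M than in those called G1, by small amounts. The authors' phase calls, summed per mouse and phase, were fitted with the mouse as a block over 11045 genes. In S phase 71 of 80 members rose and 3 fell relative to G1, where 22.6% of all genes rose and 16.9% fell. The member median was 0.23 and that of all genes lay next to 0. In G2M 65 rose and none fell, where 27.2% of all genes rose and 25.6% fell, with a member median of 0.17. Without the mouse block the same test called 9 members higher in S, against 7.27% of all genes, and 10 in G2M, against 9.77%. Taken mouse by mouse, the median S difference was 0.28 and 0.29 in WT and 0.20 and 0.21 in PyMT mice, and the G2M difference 0.20 and 0.18 in WT and 0.12 and 0.18 in PyMT mice. Phases also differ in depth, with median UMIs of 3592 to 5962 per cell in G1, 6622 to 10975 in S and 6820 to 10471 in G2M. Phases also hold different cells. Over the 4 mice, G1 made up 97.8% to 99.6% of stem-like cluster 1, where the member share was lowest, and 98.5% to 99.7% of lymphoid-like cluster 7. G2M made up 94.9% to 96.4% of cluster 4 and S 32.9% to 46.7% of cluster 6. G1 also made up 97.7% to 99.1% of cluster 2, led by Ung, E2f1 and Mcm genes, and 42.3% to 50.2% of cluster 6. Cells called G1 thus include cells of clusters led by cell cycle genes and are not a non-cycling reference. The part of depth and of this difference in cell types was not tested.

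Cycs had the largest S phase change of all members and next to none in G2M. It had 636, 587, 1008 and 914 CPM in G1 (WT 1, WT 2, PyMT 1 and PyMT 2), 1064, 898, 1351 and 1287 CPM in S and 657, 572, 1021 and 977 CPM in G2M. S was the highest phase in each mouse, and G2M lay near G1. The log2 change was 0.56 (SE 0.05) in S and 0.03 in G2M (adjusted p = 0.625 by edgeR). Atp5o rose in both, by 0.43 and 0.38. It had 416, 413, 709 and 708 CPM in G1, 591, 584, 890 and 937 CPM in S and 565, 584, 836 and 911 CPM in G2M.

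In complex I, 34 of 36 members rose in S, led by Ndufb6 (log2 0.41), the core flavoprotein Ndufv1 (0.40) and Ndufa2 (0.36), and Ndufa6 fell by 0.09. In G2M 32 rose, led by Ndufv1 (0.38), Ndufa2 (0.37) and the iron-sulphur subunit Ndufs8 (0.33). All 4 genes of complex II rose in S, with Sdhd at 0.35, and Sdhb, Sdhc and Sdhd rose in G2M, with Sdhc at 0.33. In complex III, Uqcr10 (0.45), Uqcrq (0.43) and Uqcr11 (0.28) led 6 rises in S while Uqcrh fell by 0.08. Uqcrfs1 (0.33), Uqcr10 and Uqcrc1 led 5 rises in G2M. In complex IV, Cox7a2, Cox5a and Cox6a1 led 11 rises in S (0.43, 0.40 and 0.39), and Cox7a2l fell by 0.23. In G2M Cox7a2, Cox6b2 and Cox6a1 led 10 rises (0.41, 0.40 and 0.38). In complex V, 15 of 17 rose in each phase. Atp5o, Atp5k and Atp5j led in S and Atp5g2 (0.45), Atp5o and Atp5s in G2M.

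The mt- genes showed no common direction between phases. Their medians were -0.03 in S, with 3 called higher and 3 lower, and 0.00 in G2M, with 3 higher and 4 lower. Glycolysis genes, with 17 tested, had a median of 0.10 in S (9 rose, 5 fell) and -0.11 in G2M (none rose, 8 fell). Of 19 tricarboxylic acid cycle enzymes 13 rose in S and 11 in G2M, with medians of 0.23 and 0.17. Of 77 mitochondrial ribosomal protein genes 66 rose and 1 fell in S, and 46 rose and 8 fell in G2M. Of 18 stress genes 13 fell in S and 12 in G2M, with medians of -0.72 and -0.56.

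**Figure D4:**
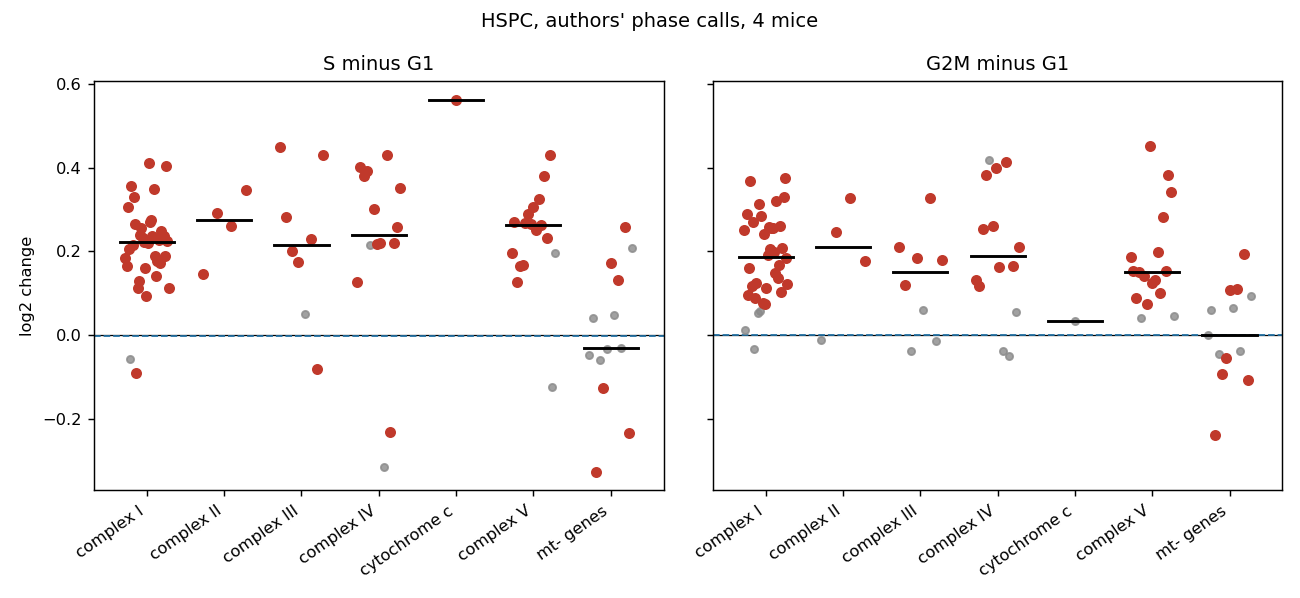
Log2 change of each member and mt- gene (points) in S (left) and G2M (right) relative to G1, by complex, over 4 mice with the mouse as a block. Red points passed an adjusted p of 0.05, black bars are medians and the dashed line is the median of all genes. Cycs stands at 0.56 in S and 0.03 in G2M.

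In the stroma most members had lower values in the PyMT than in the WT library, in each of the 3 clusters with at least 100 cells in both. There was 1 library per genotype, so no test was made. The intervals given are exact 95% Poisson intervals that cover counting error only. The authors' cluster 0 is LepR+ mesenchymal-like (977 WT and 2242 PyMT cells), cluster 1 tendon- or articular-like (441 and 367) and cluster 2 fibroblast-like (559 and 346). In cluster 0, 68 of 79 members with at least 20 UMIs had a log2 ratio of PyMT over WT below 0, against 42.9% of all genes. In clusters 1 and 2 these counts were 67 of 77 and 70 of 78, against 35.1% and 40.2%. The member medians were -0.34, -0.31 and -0.32, and those of all genes 0.07, 0.16 and 0.09.

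The intervals of 55, 43 and 48 members lay wholly below 0 in clusters 0, 1 and 2, against 12.3%, 6.85% and 8.29% of all genes. Those of 3, 1 and 0 lay wholly above, against 21.4%, 19.3% and 16.9%. Past 1.5-fold, 11, 8 and 3 members were lower, against 7.78%, 5.33% and 5.6% of all genes, and 0, 0 and 1 higher, against 11.2%, 17.2% and 11.3%. Of 77 members with a ratio in all 3 clusters, 60 were below 0 in each, and only Uqcrc2, a core protein of complex III, was above 0 in each. All 3 clusters come from the same pair of libraries and are not independent.

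In cluster 0, complex I had a median of -0.41, with 34 of 36 members below 0. Ndufa1, an accessory subunit encoded on the X chromosome, went from 121 to 69.5 CPM (log2 -0.80, interval -0.97 to -0.62) and Ndufa5 from 144 to 86.0 CPM (-0.75). At the other end Ndufv1 went from 36.5 to 38.5 CPM (0.08) and the core iron-sulphur subunit Ndufs1 from 37.8 to 38.6 CPM (0.03), with intervals that span 0. Complex II stood at a median of 0.02: Sdhb was at 43.2 and 45.8 CPM, Sdhd at 38.3 and 40.2, Sdhc at 44.0 and 42.3 and Sdha at 78.6 and 77.2, each with an interval that spans 0. In complex III (median -0.26), Uqcrh went from 262 to 161 CPM (-0.70) and Uqcr10 from 136 to 97.4 CPM (-0.49). Uqcrc2 went from 56.7 to 71.4 CPM (0.33, interval 0.11 to 0.56) and Uqcrc1 from 44.6 to 48.6 CPM (0.13).

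In complex IV (median -0.34 in cluster 0), Cox6b2 went from 19.4 to 10.8 CPM (log2 -0.85, interval -1.29 to -0.40) and its somatic counterpart Cox6b1 from 233 to 156 CPM (-0.58). Cox7a2l was at 85.3 and 89.1 CPM (0.06), and Cox7a1, with 6 and 23 UMIs, at 0.44 (interval -0.90 to 2.03). Cox6a2 had 7 and 2 UMIs and Cox8b 3 and 3, too few for a ratio. In complex V (median -0.36), Atp5e, the epsilon subunit, went from 291 to 176 CPM (-0.73) and Atp5j2 from 200 to 125 CPM (-0.68). Atp5b, the catalytic beta subunit, went from 185 to 223 CPM (0.27, interval 0.15 to 0.40) and Atp5c1 was at 128 in both. Cycs went from 76.1 to 92.5 CPM (0.28, interval 0.09 to 0.48) in cluster 0, from 120 to 93.0 CPM (-0.37, interval -0.66 to -0.09) in cluster 1 and from 104 to 94.0 CPM (-0.15, interval -0.41 to 0.11) in cluster 2.

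As shares of UMIs, the members took 1.15%, 1.35% and 1.28% in WT clusters 0, 1 and 2 and 0.882%, 1.08% and 1.02% in PyMT. In the smaller clusters 3 (sinusoidal endothelial-like), 4 (capillary- or arterial endothelial-like) and 5 (osteolineage-like) the WT shares were 1.08%, 0.921% and 1.58% and the PyMT shares 0.833%, 0.681% and 1.14%, from 55 to 120 cells a library. Osteolineage-like cells had the highest and capillary- or arterial-like cells the lowest share in both libraries. Median UMIs per cell had the same extremes, at 11233 in WT and 9662 in PyMT cluster 5 and 1116 and 1315 in cluster 4. The part of depth in these shares was not tested. The mt- genes took 5.07%, 3.98% and 3.56% in WT and 4.19%, 4.87% and 4.15% in PyMT clusters 0, 1 and 2, with median log2 ratios of -0.28, 0.33 and 0.23. They were thus lower in cluster 0 and higher in clusters 1 and 2 of the PyMT library, while the nuclear members were lower in all 3.

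Transcript length moved with these ratios. Spearman's rho between length and log2 ratio was 0.55, 0.40 and 0.41 over the members of clusters 0, 1 and 2 and 0.15, 0.27 and 0.24 over all genes. In cluster 0 the shorter members (at or under their median length) had a median of -0.44 and the longer ones -0.10. Genes under 800 nucleotides that are neither members nor ribosomal protein genes had medians of -0.18, -0.12 and -0.20, and those of 3000 or more 0.12, 0.28 and 0.17. Cytosolic ribosomal protein genes stood at -0.25, -0.26 and -0.31 and mitochondrial ones at -0.14, -0.32 and -0.22. Glycolysis genes stood at 0.37, 0.10 and -0.06 and tricarboxylic acid cycle enzymes at 0.11, 0.14 and 0.07.

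The 19 stress genes took 3.83%, 1.58% and 1.86% of UMIs in WT and 6.67%, 3.02% and 3.37% in PyMT clusters 0, 1 and 2. In cluster 0 the 8 erythroid markers went from 367 to 82.4 CPM, with 1 and 0 of them at 0, and the 9 neutrophil markers from 37.0 to 56.8 CPM, with 5 and 1 at 0. The part of length, stress RNA and free RNA in the ratios was not tested, and genotype and library cannot be told apart here.

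**Figure D5:**
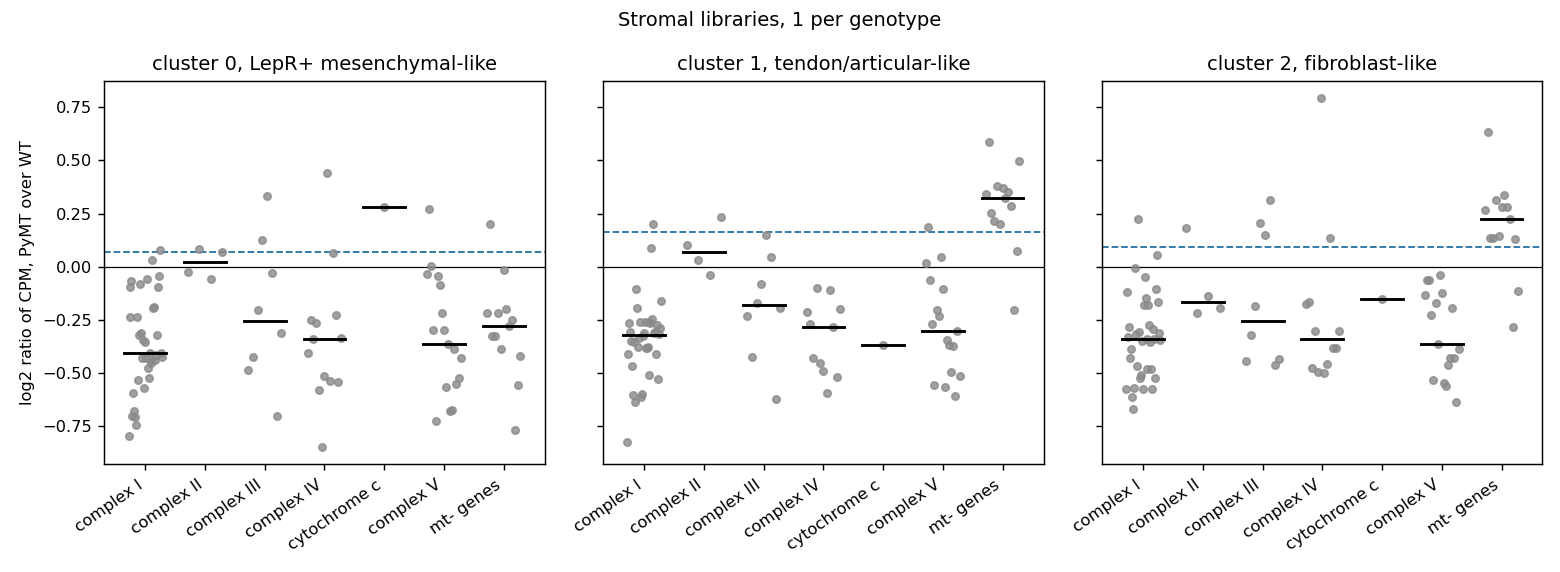
Log2 ratio of CPM, PyMT library over WT library, of each member and mt- gene (points) by complex in stromal clusters 0, 1 and 2. Black bars are medians and the dashed line is the median of all genes. Nuclear members centre at -0.34, -0.31 and -0.32, and mt- genes at -0.28, 0.33 and 0.23.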

How the data were processed

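Per the labels' protocols, a stranded low-input kit made the bulk libraries from total RNA, and a droplet method that reads transcript 3' ends made those of single cells. Trim Galore, STAR 2.5.3a, Cell Ranger 6.0.0 and the build mm10 are named in the submitters' processing notes. For the bulk table, the sources used here give neither counter, strand setting nor annotation. The authors deposited raw counts of reads per gene in bulk and of UMIs per gene and cell. The deposited cell metadata give the mitochondrial share as a fraction in stroma and as a percent in HSPC, with the authors' stromal clusters and phase calls. The HSPC table holds 11992 genes and no cytosolic ribosomal protein genes.

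Counts were tested with edgeR 4.0.16 in R 4.3.3 (a robust quasi-likelihood fit after filterByExpr, with TMM scaling), with Benjamini-Hochberg adjustment over all genes tested and a threshold of 0.05. All adjusted p-values come from edgeR unless DESeq2 1.42.0 is named. HSPC counts were summed per mouse, and per mouse and phase with the mouse as a block. CPM in bulk and HSPC tests are TMM-normalised, and those of clusters and of summed lists are plain. In stroma, cells were dropped below 500 genes or from 10% mitochondrial UMIs up, and ratios were taken for genes with at least 20 UMIs in clusters with at least 100 cells per library, with 0.5 UMIs added for medians and counts. HSPC clusters were rebuilt from 2000 variable genes (30 components, 20 neighbours, resolution 0.6, leidenalg 0.10.2). No doublet caller was run. Near-identical copies are transcripts of at least 95% identity over at least 50% of the length (13 members and 8 mt- genes). Intervals cover counting error only.

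On simulated counts the bulk test over 15433 genes found 25.4% of genes changed 1.5-fold, 45.9% of those changed 2-fold and 79.7% of those changed 4-fold (100% of 2-fold changes above the median count and 13.2% below it), and 7.77% of its calls were false. At the same sizes the HSPC genotype test found 41.8%, 74.2% and 96.9% over 11664 genes, with 4.79% false calls.

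The members, lists and tests were chosen with earlier results of these data known. Values in every library are given for members past the threshold, the 2 smallest p-values of each complex in bulk, the paralogue sets and Cycs. For phases up to 3 members per complex and direction are named, and for stroma the 2 highest and 2 lowest ratios per complex in cluster 0. Alternatives changed the normalisation, test, filter, library size, block, cells, weighting, denominator and libraries.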

Additional observations from a re-analysis of the deposited data

Results flagged for a closer look

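Among 26 groups of 4 bulk libraries checked, 3 held a library that stood apart from the other 3, and chance flags about 1 in 20 groups. Uqcrh had 20.6 CPM in tumour-free library 4 against 29.9 to 30.3 CPM in the others. Atp5g3 had 25.3 CPM in tumour-free library 2 against 27.8 to 28.2 CPM. The members summed to 1651 CPM in Py230 library 3 against 1504 to 1524 CPM in the other Py230 libraries.

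The PyMT minus WT difference pointed in opposite directions in different cells. The member median was -0.34, -0.31 and -0.32 on the log2 scale in stromal clusters 0, 1 and 2 and 0.24 in HSPC. The median of the mt- genes was -0.28 in stromal cluster 0 and 0.33 and 0.23 in clusters 1 and 2. These differences between cells were not tested, and the stroma has 1 library per genotype. The measures also differ. Stromal values are ratios of plain CPM, and the HSPC value is a TMM-scaled estimate from a table without cytosolic ribosomal protein genes. Non-members under 800 nucleotides, ribosomal protein genes left out, had medians of -0.18, -0.12 and -0.20 in stromal clusters 0, 1 and 2. In HSPC such non-members stood at 0.11.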

How the results depend on the processing

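No result changed sign under any alternative. Of the recomputed summary values 129 stayed close to the reported one and 33 moved. The 129 include 14 bulk counts of members called higher and 16 HSPC counts of members called lower, which stayed at 0. The bulk number called lower moved in 9 alternatives and stayed close in 5. For the HSPC number called higher these were 12 and 4. Of those of single members 507 kept their status, called or not called, 47 lost a call and 2 gained one. The 507 include members with no call in the main fit. All these counts include HSPC fits that leave 1 mouse in a genotype, and calls from such fits do not show how stable a result is. In bulk, the number of members called lower (1) became 2 with no filter on low counts and 0 without tumour-free library 1 and Py230 library 3 together, and ranged from 0 to 2 when 1 library was left out. The member median ranged from -0.31 to -0.13 over those omissions. Replicate numbers are shared by the bulk groups but do not pair them: same-numbered libraries correlated at -0.39, -0.13, -0.20 and 0.02. Libraries of unlike number ranged from -0.48 (tumour-free 2 with Py230 3) to 0.52 (tumour-free 1 with Py230 3). Libraries thus varied together across the groups, and the source of this was not tested. Tumour-free library 1 and Py230 library 3 are those left out together above. With the replicate number as a block, 0 members were called and Cox5a was at log2 -1.20 (adjusted p = 0.070). Over all its alternatives the adjusted p of Cox5a ranged from 0.007 to 0.113.

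In HSPC, the number called higher (4) was 7 with DESeq2 size factors, 26 with DESeq2's Wald test, 10 in G1 cells and 2 to 36 when 1 mouse was left out. Within clusters, chosen after seeing the data, it was 1 in cluster 2, 0 in cluster 3 and 2 in clusters 4, 7 and 8, and the median moved to 0.047 in cluster 3 and 0.13 in cluster 8. Without the mouse block 9 members rose and 0 fell in S and 10 rose in G2M. In WT mice alone 1 fell in S and 1 in G2M, and G2M falls ranged from 0 to 1 when 1 mouse was left out. The stromal median in cluster 0 was -0.31 over every deposited cell, -0.30 as a mean of cells and -0.37 without mt- and ribosomal protein genes, which gave -0.34 in cluster 2. The cause of these shifts was not tested. On simulated bulk counts, 2-fold changes were found in 100% of genes above and 13.2% of genes below the median count.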
